A study of Mus musculus with 10 samples.

Results

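The MS4A genes encode small tetraspan membrane proteins that sit beside receptors of leukocytes and modulate their signalling. The genes described here are Ms4a4a, Ms4a4b, Ms4a4c, Ms4a6b, Ms4a6c, Ms4a6d and Ms4a7, the MS4A genes of macrophages, monocytes and T cells. They were taken by symbol from the deposited gene table, and all 7 were found among its 18223 genes. The table comes from subcutaneous tumours of MC38, a mouse colon cancer line, with 5 libraries of high tumour burden (HTB) and 5 of low tumour burden (LTB). The label of the HTB tumours reads 2000000 and that of the LTB tumours 500000, each over 14 days, taken here as injected cells and days of growth. The labels name no host strain, age, drug or measured tumour size, and they do not say whether each library is a separate animal, so p-values measure the spread between these libraries. Each library is bulk tumour tissue grown from 1 cell line, and fewer cells of a type cannot be told apart from less RNA per cell.

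Members of the family differ in where they act. Ms4a4b is a T cell gene whose protein associates with the costimulatory receptor GITR. MS4A4A is found on macrophages, where it associates with the beta-glucan receptor dectin-1, and MS4A6D of macrophages is known to pair with the complement receptor VSIG4. Ms4a7 is a marker of tissue macrophages. Better known relatives are Ms4a1, which encodes the B cell antigen CD20, and Ms4a2, which encodes the beta chain of the high-affinity IgE receptor of mast cells.

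The libraries held 23070917 to 27185168 estimated reads. HTB replicate 2 stood apart through skeletal muscle and fat RNA: its skeletal muscle markers summed to 11402 CPM (reads scaled to a common library total) and those of the other 4 HTB libraries to between 6.74 and 44.1 CPM. LTB replicate 1 stood apart in several lists, and not through T cell RNA alone. Its T cell markers were at 364 CPM against 109 to 173 CPM in the other LTB libraries. Neutrophil markers were at 85.5 CPM against 27.6 to 31.7 CPM, and mast cell markers at 192 CPM against 42.2 to 126 CPM. Natural killer cell markers were at 106 CPM against 48.5 to 83.6 CPM, and interferon-induced genes at 5584 CPM against 2632 to 3576 CPM. Its macrophage markers, at 965 CPM, lay within the 547 to 1015 CPM of the other LTB libraries. The same held for its monocyte markers, at 3129 CPM against 2641 to 3863 CPM. Markers of epithelium were low in these tumours, and 4 of 6 (Krt8, Krt18, Krt19 and Cldn7) had too few reads to be tested. The fold changes of the members are therefore also given without LTB replicate 1.

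All 7 genes lie in 1 cluster on chromosome 19, and they arose by duplication, so their sequences are shown first. In GRCm38 the deposited table places Ms4a7 (NCBI gene 109225) at 11321039 to 11336146 on the minus strand, Ms4a4a (666907) at 11375488 to 11393315 and Ms4a4c (64380) at 11404717 to 11427246. Further along are Ms4a4b (60361) at 11443558 to 11467055, Ms4a6c (73656) at 11469041 to 11530403, Ms4a6b (69774) at 11518559 to 11531256 and Ms4a6d (68774) at 11586606 to 11604804, the last on the minus strand and the others on the plus strand. These spans cover exons and introns. The span that the table gives Ms4a6c runs into that of Ms4a6b, although in the GENCODE M21 annotation of GRCm38 the exons of the members share 0 bases.

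The closest pairs were Ms4a4b with Ms4a4c and Ms4a6b with Ms4a6c, and their promoters are printed because the first pair includes the member that passed the test and the second had nearly the same profile over the libraries. The 250 bases before the start site are from RefSeq (GRCm38.p6), 5′ to 3′ on the plus strand, at chr19:11443308-11443557, chr19:11407411-11407660, chr19:11518309-11518558 and chr19:11469118-11469367 in the order printed. The windows of Ms4a4c and Ms4a6c lie inside the spans given above, so RefSeq places these start sites further along than the deposited table does. Capitals mark the longest stretch that is identical within a pair.
Ms4a4b: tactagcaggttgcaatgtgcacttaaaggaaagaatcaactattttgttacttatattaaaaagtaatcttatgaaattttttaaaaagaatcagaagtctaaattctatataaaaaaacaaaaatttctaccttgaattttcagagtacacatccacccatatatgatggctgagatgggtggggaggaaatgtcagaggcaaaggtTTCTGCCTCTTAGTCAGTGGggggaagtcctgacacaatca
Ms4a4c: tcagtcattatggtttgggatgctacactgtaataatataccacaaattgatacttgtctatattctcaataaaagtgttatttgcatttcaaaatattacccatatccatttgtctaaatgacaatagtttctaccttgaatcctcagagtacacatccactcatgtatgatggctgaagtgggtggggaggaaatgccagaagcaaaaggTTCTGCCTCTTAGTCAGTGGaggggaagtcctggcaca
Ms4a6b: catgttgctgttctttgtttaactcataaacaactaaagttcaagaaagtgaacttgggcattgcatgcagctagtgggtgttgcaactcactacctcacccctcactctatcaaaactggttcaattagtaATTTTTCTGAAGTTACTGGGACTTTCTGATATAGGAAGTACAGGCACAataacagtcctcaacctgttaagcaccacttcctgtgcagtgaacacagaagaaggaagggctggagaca
Ms4a6c: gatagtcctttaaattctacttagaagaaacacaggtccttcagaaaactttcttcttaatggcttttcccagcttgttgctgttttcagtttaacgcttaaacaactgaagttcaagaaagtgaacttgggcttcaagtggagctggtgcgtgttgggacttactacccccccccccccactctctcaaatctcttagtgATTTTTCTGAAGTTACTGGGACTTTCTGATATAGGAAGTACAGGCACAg
The identical stretch is 20 bases in the first pair and 48 bases in the second. Aligned over the whole window with gaps allowed, Ms4a4b and Ms4a4c shared 72.4% of bases and Ms4a6b and Ms4a6c 59.6%. All other pairs of members with a window shared 47.2% to 53.2%, among them Ms4a4a and Ms4a4b at 52.4%. Windows of unrelated genes were not aligned, so these lower values are not read as likeness. Windows were found for 6 of the 7 members, the exception being Ms4a6d. On both strands, 0 of the windows of these 6 genes held GAAA followed by any 2 bases and again GAAA, the core of an interferon-stimulated response element (2.98% of all promoters in the table did), TTCNNNGAA, the interferon-gamma-activated site (7.02%), or GAGGAAG, a site of the myeloid factor PU.1 (10.6%). TGTGGT, the RUNX site, was present in Ms4a4c from -211 to -206 relative to its RefSeq start, as it was in 14% of all promoters. A match is a description of letters, and a window without one says nothing of the factor.

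The paralogs are also alike within their transcripts. In GENCODE M21 the longest exact stretch shared by transcripts of Ms4a4b and Ms4a4c was 127 bases, that of Ms4a6b and Ms4a6c 96 bases and that of Ms4a6b and Ms4a6d 81 bases. Of the 50-base windows of Ms4a4c, 8.19% occurred in another MS4A gene, and of Ms4a4a and Ms4a7 0% did. Some counts are fractional. Ms4a4b and Ms4a4c had fractional values in the same 4 LTB libraries, and in each of the 4 their sum was whole within 0.005. Ms4a6c had fractional values in 9 of 10 libraries, in which Ms4a6b and Ms4a6d were fractional in 1, where those 2 summed to a whole number. How reads were assigned between these genes is not given in the sources, so the levels of Ms4a4b, Ms4a4c and the Ms4a6 genes are uncertain to that extent. Ms4a4a and Ms4a7 had no fractional value.

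Among the 7 members, 1 passed the test between HTB and LTB (edgeR quasi-likelihood test, adjusted p under 0.05 over 13470 genes): Ms4a4b fell in HTB. Across all tested genes 7.51% were called lower and 3.9% higher. All 7 members had a negative log2 fold change, as did 6375 of the 13470 genes, and the median of the members was -0.93 where that of all genes was 0.02. Without LTB replicate 1 the median of the members was -0.50 and that of all genes 0.02, and Ms4a6b and Ms4a6c turned positive. In 0 of 7 members did every HTB library lie below every LTB library, which held for 7.06% of all genes, and in 0 of 7 did every HTB library lie above, which held for 4.68%. The count of members called was 3 by the DESeq2 Wald test (Ms4a4b, Ms4a6d and Ms4a7, where 9.93% of genes were called lower and Ms4a4c received no adjusted p), and it was 0 without HTB replicate 3, without HTB replicate 4 or without HTB replicate 5. Calls over all genes also dropped in those fits. There 561 of 13573, 566 of 13572 and 693 of 13567 genes were called lower, against 1011 of 13470 in the main fit.

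**Figure D1:**
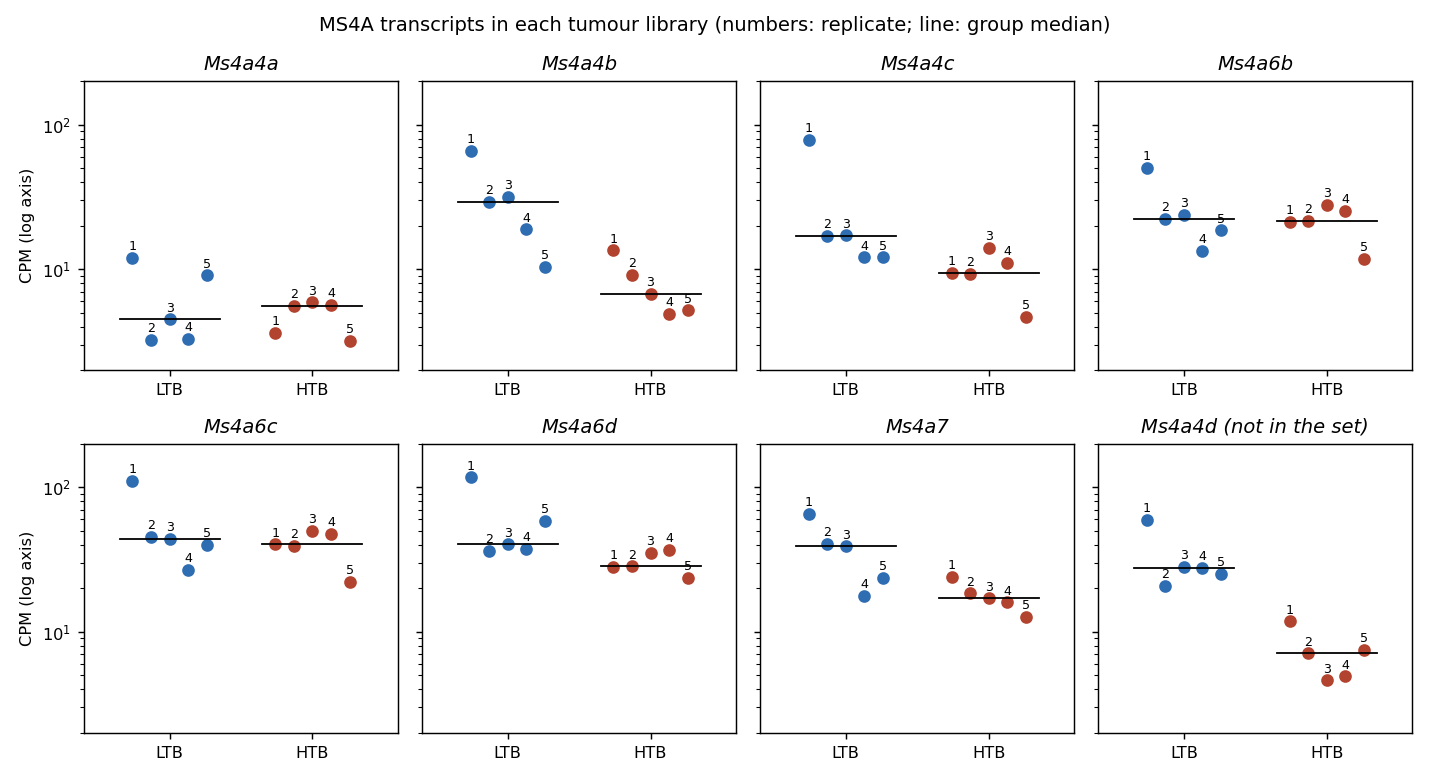
Level of each member, and of the neighbouring gene Ms4a4d, in every library as CPM on a log axis. Points are libraries numbered by replicate, blue for LTB and red for HTB, and lines are group medians. LTB replicate 1 is the highest point in every panel, and in the Ms4a4d panel the groups do not overlap.

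Ms4a4b, the T cell member, stood at 65.9, 29.3, 31.6, 18.8 and 10.3 CPM in LTB replicates 1 to 5 and at 13.5, 9.13, 6.74, 4.89 and 5.2 CPM in HTB replicates 1 to 5. The groups overlapped through a single pair of libraries, since HTB replicate 1 lay above LTB replicate 5. The mean was 31.2 ± 21.2 CPM (SD, n = 5) in LTB and 7.89 ± 3.56 CPM (n = 5) in HTB. The log2 fold change was -1.98 ± 0.47 (SE), with an adjusted p of 0.0238. Without LTB replicate 1, its highest library, the log2 fold change was -1.51 (adjusted p = 0.0394). The call was lost without HTB replicate 3, 4 or 5, with adjusted p of 0.0642, 0.0632 and 0.0571, while the log2 fold change stayed between -1.93 and -1.85.

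T cell markers moved with Ms4a4b. Of the 10 T cell markers 8 fell and 0 rose in HTB, and 5 fell without LTB replicate 1. Their summed level ran from 48.3 to 103 CPM in the HTB libraries and from 109 to 364 CPM in the LTB libraries. Lat, the adaptor downstream of the T cell receptor, changed by -2.19 ± 0.41 (log2, SE; adjusted p = 0.00935), the adhesion receptor gene Cd2 by -2.24 ± 0.46 and the receptor chain gene Cd3d by -2.18 ± 0.50. The signalling kinase gene Lck changed by -1.68 ± 0.34. Cd3e, a chain of the T cell receptor complex, stood at -1.76 ± 0.52 with an adjusted p of 0.0508. Cd3d lost its call without HTB replicate 3, 4 or 5, as Ms4a4b did, in fits that called fewer of all genes lower. Natural killer cell markers also moved: 3 of 6 fell and 0 rose (2 fell without LTB replicate 1), among them the activating receptor gene Klrk1 at -1.64 ± 0.37 (adjusted p = 0.0204). Their summed level spanned 17.1 to 38.7 CPM over the HTB libraries and 48.5 to 106 CPM over the LTB libraries, and the part of either cell type in the change of Ms4a4b was not tested.

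Set against Cd3e within each library, Ms4a4b overlapped between the groups. The log2 ratio of Ms4a4b to Cd3e reads was 1.66 ± 0.24 in HTB (SD, n = 5) and 1.83 ± 0.23 in LTB (n = 5), a difference of -0.17 (exact two-sided permutation test, p = 0.302; adjusted p = 0.391 over 35 ratios). Ratios ran from 1.48 to 2.06 in HTB and from 1.58 to 2.17 in LTB. A further chain of the same receptor complex, Cd3g, had the profile most like that of Ms4a4b among 11789 genes compared. Profiles were log2(CPM + 1) over the 10 libraries, each centred on its own mean, and the root mean square difference between Ms4a4b and Cd3g was 0.137, where the spread of Ms4a4b itself was 1.09. Next came Klrc1, an inhibitory receptor gene of cytotoxic lymphocytes, at 0.242 and the chemokine receptor gene Cxcr6 at 0.243. With profiles centred within each group, Cd3g stayed nearest, at 0.137, followed by Cd3e at 0.159.

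Ms4a4c, the nearest relative of Ms4a4b in sequence, was dominated by 1 library. It had 78.6 CPM in LTB replicate 1 and 17, 17.1, 12.1 and 12.1 CPM in LTB replicates 2 to 5. HTB replicates 1 to 5 had 9.43, 9.25, 14.1, 11 and 4.69 CPM. Of the HTB libraries 4 lay below the lowest LTB library, and HTB replicate 3 lay among the LTB values. Ms4a4c did not pass, at -1.50 ± 0.55 (log2, SE; adjusted p = 0.101), and without LTB replicate 1 the value was -0.59 (adjusted p = 0.21). The genes most like it were the schlafen gene Slfn1 (0.214) and Fcgr1, which encodes the high-affinity IgG receptor of macrophages (0.219), both also nearest with profiles centred within each group.

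Ms4a7 and Ms4a6d, genes of macrophages, came next in size. Ms4a7 had 65.7, 40.8, 39.1, 17.8 and 23.7 CPM in LTB replicates 1 to 5 and 24.1, 18.4, 17.1, 16 and 12.6 CPM in HTB replicates 1 to 5. The overlap came from LTB replicates 4 and 5, which lay below the highest HTB value. Its log2 fold change was -1.08 ± 0.32 (SE) with an adjusted p of 0.0508, just short of the threshold, and -0.78 without LTB replicate 1 (adjusted p = 0.0989). It passed under 6 of 18 alternatives, among them the DESeq2 Wald test (adjusted p = 0.0062), a filter of 1 CPM in 5 libraries (adjusted p = 0.0498) and the fit without LTB replicate 4 (adjusted p = 0.0235). The profiles nearest to Ms4a7 were those of Zc3h12d (0.156), Cd180 (0.165) and Mpeg1, the perforin-2 gene of phagocytes (0.187).

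Ms4a6d had 117 CPM in LTB replicate 1, 58.5 CPM in LTB replicate 5 and 36.2, 40.4 and 37.5 CPM in LTB replicates 2, 3 and 4. In HTB replicates 1 to 5 it had 28.2, 28.4, 35.2, 36.8 and 23.5 CPM. The groups touched at a single point, HTB replicate 4 lying just above LTB replicate 2. The log2 fold change was -0.93 ± 0.32 (SE; adjusted p = 0.0822), and -0.50 without LTB replicate 1 (adjusted p = 0.104). By the DESeq2 Wald test it passed (adjusted p = 0.0214). Ccr1, a chemokine receptor gene of monocytes and neutrophils, had the nearest profile (0.141), also with profiles centred within each group (0.121).

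Ms4a6b and Ms4a6c showed no difference beyond the spread of the libraries. Ms4a6c stood at 110, 45.5, 44.1, 26.9 and 39.9 CPM in LTB replicates 1 to 5 and at 40.4, 39.3, 49.8, 47.5 and 22.2 CPM in HTB replicates 1 to 5. Ms4a6b stood at 50.4, 22.3, 23.6, 13.3 and 18.6 CPM in LTB and at 21.2, 21.5, 27.9, 25.2 and 11.8 CPM in HTB, in the same order. In both genes HTB replicates 3 and 4 exceeded 4 of the 5 LTB libraries. Their log2 fold changes were -0.42 ± 0.35 (adjusted p = 0.453) and -0.25 ± 0.34 (adjusted p = 0.656). Without LTB replicate 1 the sign turned, to 0.03 for Ms4a6c and 0.145 for Ms4a6b.

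These neighbours were each other's nearest profile among all genes compared, with a root mean square difference of 0.095 where the spread of Ms4a6b was 0.523. Sequence shared between their transcripts and their overlapping spans in the table may enter both counts, and their part in this likeness was not tested. Next to both came Tmem86a (0.144 to Ms4a6b) and the adaptor gene Dok3 (0.204). With profiles centred within each group, Ms4a6b and Ms4a6c stayed nearest to each other, at 0.0632. Pirb, which is not an MS4A gene, was then almost as near to Ms4a6b, at 0.0663, and second to Ms4a6c, at 0.096.

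Ms4a4a, the dectin-1 partner of macrophages, was the member with the fewest reads, 640 over HTB and 795 over LTB. It had 12, 3.23, 4.49, 3.28 and 9.08 CPM in LTB replicates 1 to 5 and 3.64, 5.6, 5.89, 5.69 and 3.19 CPM in HTB replicates 1 to 5. Every HTB library but replicate 5 lay inside the LTB range. The log2 fold change was -0.42 ± 0.39 (SE; adjusted p = 0.504), and -0.06 without LTB replicate 1 (adjusted p = 0.927). The calcium channel gene Cacna1d (0.243) had the profile nearest to it.

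**Figure D2:**
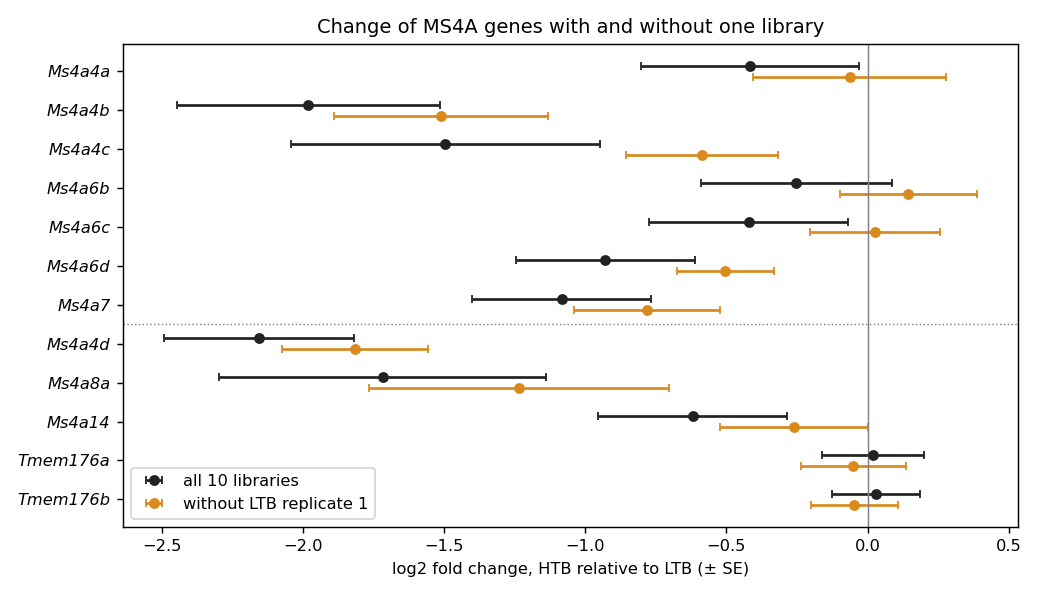
log2 fold change of HTB relative to LTB with its SE for the 7 members (above the dotted line) and the other tested genes of the family and its relatives (below), from all 10 libraries (black) and without LTB replicate 1 (orange). Ms4a4b moves from -1.98 to -1.51, Ms4a4c from -1.50 to -0.59, and among the members Ms4a6b and Ms4a6c cross 0.

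Levels between members were compared per length, as CPM per kilobase of the longest GENCODE transcript matched to RefSeq. In LTB the order was Ms4a6d at 40.9 ± 24.2 CPM per kilobase (SD, n = 5), Ms4a6c at 29 ± 17.8, Ms4a7 at 23.7 ± 11.8, Ms4a4c at 15.9 ± 16.7, Ms4a6b at 15.2 ± 8.54 and Ms4a4a at 7.67 ± 4.71. Neighbours in this order differed by less than the SD of either gene, except Ms4a6b and Ms4a4a, whose difference exceeded the SD of Ms4a4a but not that of Ms4a6b. In HTB Ms4a6c (21.7 ± 5.88) and Ms4a6d (21.5 ± 3.87) were level, followed by Ms4a6b (12.8 ± 3.61), Ms4a7 (11.2 ± 2.66), Ms4a4a (5.75 ± 1.53) and Ms4a4c (5.63 ± 1.98). The matched transcript of Ms4a4b is 4750 bases against 836 to 1841 for the others. Its level of 6.56 ± 4.46 in LTB and 1.66 ± 0.75 in HTB depends on that length, and it is not placed in the order.

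Ratios of reads within a library, which do not depend on scaling between libraries, were compared between the groups. Over 35 ratios, 21 between members and 14 to Csf1r or Cd3e, 0 passed after adjustment by the exact two-sided permutation test, although 16 had an unadjusted p under 0.05. The smallest p that the splits of 5 against 5 libraries allow is 0.00794, and the smallest adjusted p was 0.0794. Without LTB replicate 5, the library in which Ms4a4b was lowest for its group, 14 of the 35 passed, 10 of them between members. Leaving out any other single library gave 0 that passed, so these passes rest on the omission of that library.

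Over all 10 libraries the largest difference between members was that of Ms4a4b to Ms4a6b, whose log2 ratio was 0.17 ± 0.57 in LTB and -1.50 ± 0.70 in HTB (SD, n = 5 each). That is a difference of -1.66 (exact permutation test, p = 0.0159; adjusted p = 0.0794). LTB replicate 5, at -0.84, lay among the HTB values of -2.36 to -0.65, and the other LTB libraries at 0.39 to 0.50. Ms4a4a to Ms4a4b differed by 1.57 (exact permutation test, p = 0.0397; adjusted p = 0.0926), and by 2.08 without LTB replicate 5. Ms4a4c to Ms4a6b separated fully, at -0.62 to 0.64 in LTB and -1.33 to -0.99 in HTB, a difference of -0.98 (exact permutation test, p = 0.00794, the smallest possible; adjusted p = 0.0794). Ms4a6b to Ms4a7 separated fully in the other direction, at -0.87 to -0.35 in LTB and -0.19 to 0.71 in HTB, a difference of 0.81 (exact permutation test, p = 0.00794; adjusted p = 0.0794). Ms4a6b to Ms4a6c varied least, at -1.13 to -0.90 in LTB and -0.93 to -0.83 in HTB. Ms4a4b to Ms4a4c, the pair with the most alike promoters, differed by -0.68 with overlapping ranges (exact permutation test, p = 0.167; adjusted p = 0.254), so their unequal fold changes were not separated by this test.

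**Figure D3:**
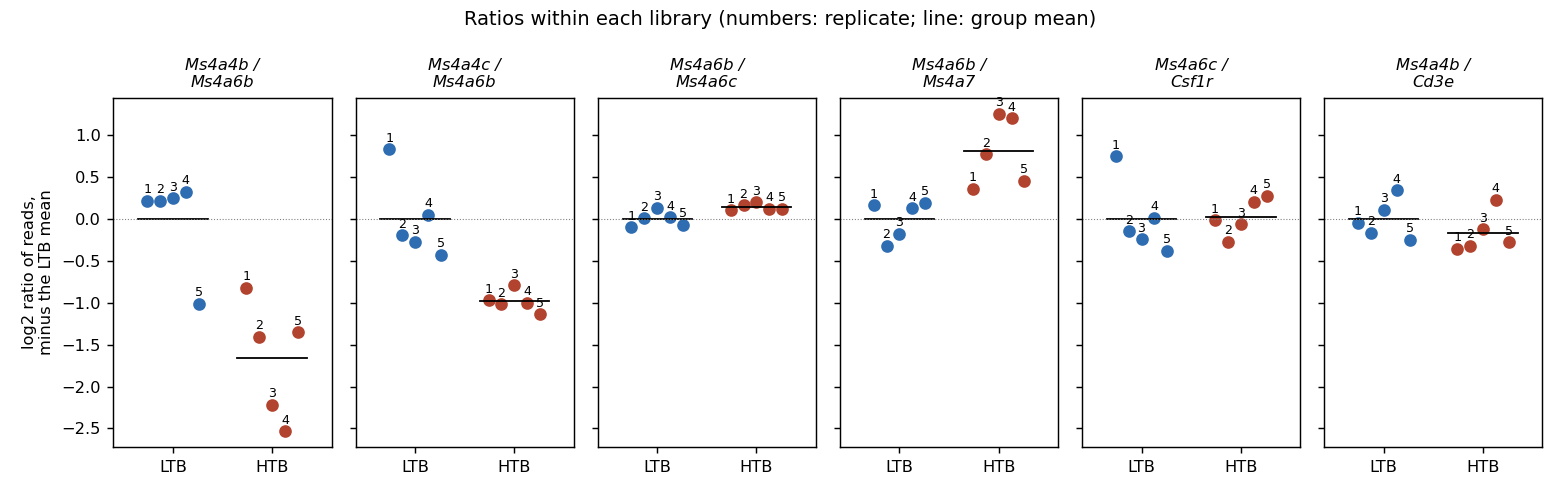
log2 ratio of reads within each library for 6 of the 35 ratios, shown minus the LTB mean of that ratio. Points are libraries numbered by replicate and lines are group means. Ms4a4c to Ms4a6b lies lower in every HTB library and Ms4a6b to Ms4a7 higher, while Ms4a4b to Cd3e and Ms4a6c to Csf1r overlap.

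Csf1r, the growth factor receptor that marks macrophages, gave a second reference. Csf1r itself stood at -0.30 ± 0.28 (log2 fold change, SE; adjusted p = 0.501). The log2 ratio of Ms4a6c to Csf1r differed by 0.03 between the groups (exact permutation test, p = 0.921) and that of Ms4a6b to Csf1r by 0.17 (exact permutation test, p = 0.429), with overlapping ranges. Ms4a4a to Csf1r differed by 0.08 (exact permutation test, p = 0.841). Larger differences, also with overlapping ranges, were those of Ms4a7 to Csf1r at -0.64 (exact permutation test, p = 0.0556; adjusted p = 0.108) and Ms4a6d to Csf1r at -0.46 (exact permutation test, p = 0.183; adjusted p = 0.256). Ms4a4c to Csf1r differed by -0.81 (exact permutation test, p = 0.0317; adjusted p = 0.0794), with LTB replicate 1 at -0.70 and the other LTB libraries between -3.07 and -2.11.

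Marker lists of the cells that carry these genes are given beside them. Of 8 macrophage markers 1 fell (Cd68, at -0.64 ± 0.19, adjusted p = 0.0496) and 0 rose, while their summed level ran from 424 to 787 CPM in the HTB libraries and from 547 to 1015 CPM in the LTB libraries. Cd68 no longer passed under 14 of 18 alternatives. Adgre1, which encodes the macrophage antigen F4/80, stood at -0.66 ± 0.28 (adjusted p = 0.145), and the complement gene C1qb at -0.38 ± 0.20 (adjusted p = 0.245). The mannose receptor gene Mrc1 stood at -0.08 ± 0.30 (adjusted p = 0.881) and Mertk, a receptor for dying cells, at 0.32 ± 0.20 (adjusted p = 0.309). Without LTB replicate 1 the list had 0 genes called in either direction, and without HTB replicate 2 and LTB replicate 1 Cd68 was called lower and Mertk higher. That last fit called more of all genes, 1662 of 13449 lower and 1245 higher, against 1011 and 526 of 13470 in the main fit. Of 8 monocyte markers 4 fell and 0 rose. Those that fell include Ccr2, the receptor that brings monocytes into tissue (-1.48 ± 0.30), Plac8 (-1.48 ± 0.31) and Ly6c2 (-2.18 ± 0.54). Ly6c2 stood at 106 CPM in LTB replicate 1 and 17.1 to 24.8 CPM in the other LTB libraries. Its log2 fold change was -1.29 without that library (adjusted p = 0.0113), and it lost its call by limma voom and without HTB replicate 3, 4 or 5. F13a1 and Vcan had positive log2 fold changes of 0.77 ± 0.40 and 0.31 ± 0.26 that did not pass. Without HTB replicate 2 Vcan was called higher, in a fit that called 1324 of 13551 genes higher. The summed monocyte level, set mainly by the fibronectin gene Fn1, spanned 1701 to 4025 CPM over the HTB libraries and 2641 to 3863 CPM over the LTB libraries, which overlap. No marker of either list was at 0 throughout a group, and the part of these cells in the changes of the members was not tested.

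Partners of MS4A proteins and their signalling genes were lower in 5 of 9 tested and higher in 0, and lower in 4 without LTB replicate 1. Clec7a, which encodes dectin-1, changed by -3.71 ± 0.34 (log2, SE; adjusted p = 5.92e-04). Its level ran from 4.87 to 8.31 CPM over the HTB libraries and from 33.3 to 128 CPM over the LTB libraries, while its partner Ms4a4a stood at -0.42. The paracaspase gene Malt1, which acts downstream of dectin-1, changed by -0.44 ± 0.07. Fcer1g and Tyrobp, adaptor chains of activating myeloid receptors, changed by -1.04 ± 0.26 and -1.02 ± 0.27, and by -0.70 and -0.65 without LTB replicate 1. Both lost their call without HTB replicate 3, 4 or 5 and without LTB replicate 3. Tnfrsf18, which encodes GITR, changed by -1.02 ± 0.26 (adjusted p = 0.0317), and its highest HTB library, at 4.21 CPM, lay just below its lowest LTB library, at 4.23 CPM. It lost its call under 6 of 18 alternatives: without LTB replicate 1 (-0.80, adjusted p = 0.0574), 2 or 3, without HTB replicate 3 or 4, and in the blocked fit on replicate number, where its adjusted p was 0.0534. Trem2, the lipid receptor of macrophages, stood at -0.78 ± 0.23 (adjusted p = 0.0552), and Vsig4 and Tnfsf18 had too few reads to be tested.

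Interferon-induced genes were lower in 8 of 15 tested and higher in 0. Those that fell include Gbp2 (-2.45 ± 0.23), Irf1 (-1.40 ± 0.14) and Iigp1 (-2.10 ± 0.25), genes of the response to interferon gamma. Summed over the list, HTB libraries reached 1022 to 1743 CPM and LTB libraries 2632 to 5584 CPM, the highest in LTB replicate 1. That library was also the highest for each of the 7 members. The part of interferon in the levels of the members was not tested.

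The rest of the family held the largest log2 fold change of any tested MS4A gene. Ms4a4d (NCBI gene 66607), between Ms4a6b and Ms4a6d at 11536849 to 11558466, had 59.2, 20.7, 28, 27.6 and 25.2 CPM in LTB replicates 1 to 5 and 11.8, 7.1, 4.61, 4.93 and 7.55 CPM in HTB replicates 1 to 5. Every HTB library lay below every LTB library. Its log2 fold change was -2.16 ± 0.34 (SE; adjusted p = 0.00433), and it passed under all 18 alternatives, at -2.41 to -1.81. Ms4a4d had no fractional value, and 0.546% of its 50-base windows occurred in another MS4A gene.

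Ms4a8a, also known from macrophages, spanned 0.22 to 1.24 CPM over the HTB libraries and 0.895 to 5.3 CPM over the LTB libraries, at -1.72 ± 0.58 (log2, SE; adjusted p = 0.0799). Ms4a14 stood at -0.62 ± 0.33 (adjusted p = 0.246). The MS4A-like genes Tmem176a and Tmem176b, which lie on another chromosome, stood at 0.02 ± 0.18 and 0.03 ± 0.16, with signs that turned under several alternatives. The other 6 MS4A genes in the table were too low for the main test. Ms4a2, the mast cell member, had 8 reads over the HTB libraries and 74 over the LTB libraries, 35 of them in LTB replicate 1, and with no filter on low counts edgeR gave an adjusted p of 0.0425 (4.74% of genes were called lower in that fit). Mast cell markers were lower in 5 of 8 (4 without LTB replicate 1), among them the protease genes Cpa3 (-3.22 ± 0.56), Tpsb2 (-3.35 ± 0.65), Cma1 (-3.26 ± 0.69) and Mcpt4 (-3.07 ± 0.67), and their summed level ran from 19.6 to 39.8 CPM in the HTB libraries and from 42.2 to 192 CPM in the LTB libraries. Gata2 of the same list stood at 0.46 ± 0.14 (adjusted p = 0.0598). It was called higher without HTB replicate 2 and LTB replicate 1, in a fit that called 1245 of 13449 genes higher. Ms4a1, which encodes CD20, had 6 reads over HTB and 11 over LTB, and Ms4a3 had 4 and 0, so a difference was not detectable at this depth.

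**Figure D4:**
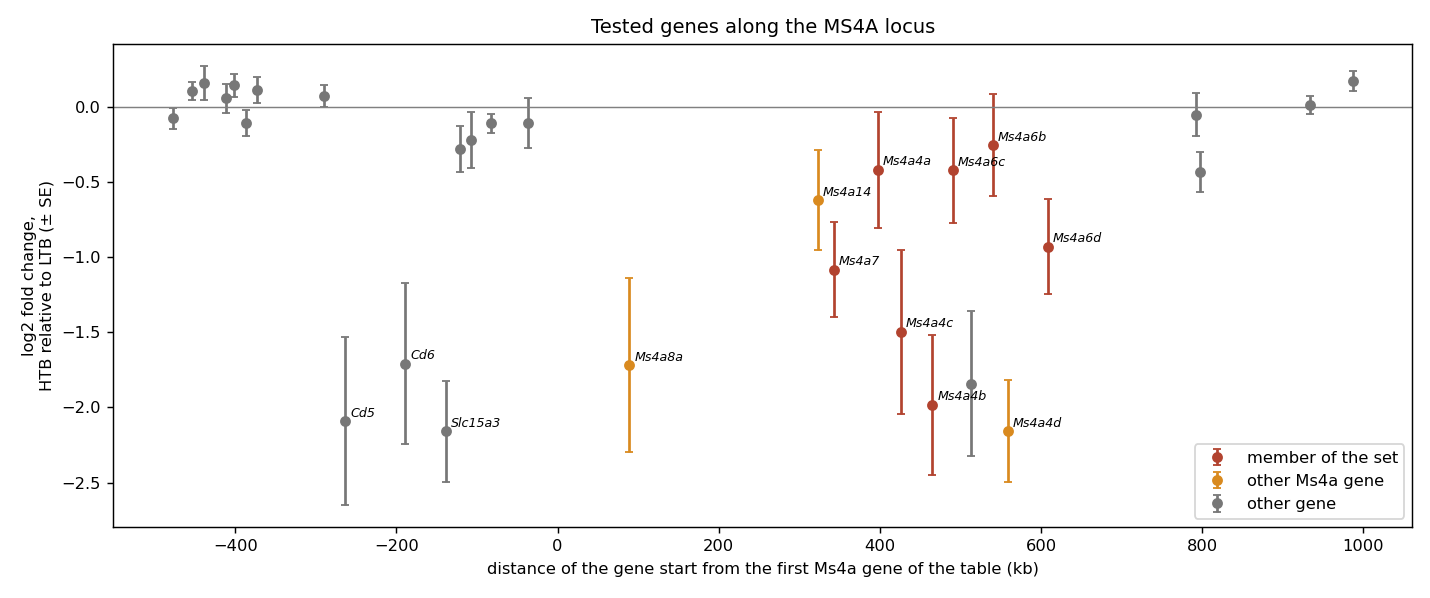
log2 fold change of HTB relative to LTB with its SE for every tested gene within 500000 bases of the MS4A cluster, by distance of its lower coordinate from the first MS4A gene of the table. Members are red, other MS4A genes orange and other genes grey. The MS4A genes lie below 0, while most grey points lie near 0 apart from Cd5, Cd6, Slc15a3 and 1 predicted gene inside the cluster.

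Around the cluster, most genes not named Ms4a lay near 0. Within the cluster and 500000 bases on either side there were 29 genes whose symbol does not start with Ms4a. Of these 20 were tested, 3 fell and 0 rose, with a median log2 fold change of -0.09. They were sorted by symbol only, and their likeness to the family in sequence was not tested. The genes that fell were Slc15a3 (-2.16 ± 0.34, adjusted p = 0.00433), which encodes a lysosomal peptide transporter of myeloid cells, the T cell antigen gene Cd5 (-2.09 ± 0.56, adjusted p = 0.0372) and the predicted gene Gm8369 (-1.84 ± 0.48, adjusted p = 0.0347), which lies inside the span the table gives Ms4a6c. Cd5 and Gm8369 each lost the call under 7 alternatives, among them the fit without LTB replicate 1, where their log2 fold changes were -2.01 and -1.39 with adjusted p of 0.0711 and 0.0674. Cd6, next to Cd5 and also a T cell gene, stood at -1.71 ± 0.54 (adjusted p = 0.0634). Size did not follow position in the cluster: the genes with the largest falls, Ms4a4b and Ms4a4d, flank Ms4a6c and Ms4a6b, which with Ms4a4a had the smallest log2 fold changes of the members.

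In the authors' deposited table, made with DESeq2 per its headers, 3 of the 7 members have a q under 0.05 and are lower in HTB, beside 7.66% of the genes with a q. These are Ms4a4b (log2 fold change -1.98, q = 1.67e-04), Ms4a7 (-1.08, q = 0.00732) and Ms4a6d (-0.93, q = 0.0247), and Ms4a4c has q = 0.0714. The column of fold changes is headed as Low against High, but its sign follows HTB over LTB, since Ms4a4b has fewer reads in HTB and a negative value. The fold changes of the authors' deposited table and of the edgeR fit differ little, and the calls differ between the tests.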

How the data were processed

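Bulk RNA-seq of 10 subcutaneous tumours was analysed, 5 per group by title. Per the labels' protocols, total RNA was column-purified and libraries were made with a SMARTer kit. Per the submitters' processing notes the build is GRCm38 (mm10). Aligner, counter, read length and strand: not given in the sources used here, and so not described. The authors deposited 1 table, whose values are estimated counts for each gene without scaling to depth. Of the values 86.4% were whole (tolerance 1e-09), and rounding moved the others by at most 0.5. Per the file headers it also holds the authors' own DESeq2 comparison as a log2 fold change, a p-value and a q-value. A line with no gene (1 line) was left out.

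Genes were tested with edgeR 4.0.16 (R 4.3.3): filterByExpr, TMM, quasi-likelihood test on group, Benjamini-Hochberg adjustment over 13470 genes, threshold 0.05. The SE is the absolute log2 fold change divided by the square root of F. CPM used TMM-scaled totals. In simulated counts for HTB against LTB (13415 genes tested, 50 changed per size), the test found 38% of 1.5-fold changes, 74% of 2-fold, 94% of 4-fold and 96% of 8-fold changes, and 4.43% of its calls were false. The simulated counts were drawn independently for each gene and held no library that stood apart as LTB replicate 1 does. These shares therefore do not give the power for any single member. Ratios used reads + 0.5 and log profiles CPM + 1. Alternatives were DESeq2 1.42.0, limma 3.58.1 voom, other scalings and filters, a block on replicate number, and fits without single libraries. Every pair of libraries within a group differed beyond sampling noise.

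The members and gene lists were chosen with earlier results of these data known. Named genes are the members, other MS4A genes, genes of the locus, up to 4 genes of smallest p per list and the 3 nearest profiles per member. Profiles were compared over 11789 genes whose mean log2 CPM reached 1, without predicted and Rik genes. List counts without HTB replicate 2 or LTB replicate 1 were added after seeing the data. Csf1r and Cd3e served as references. Tyrobp, Trem2, Vsig4, Tnfsf18, Fn1, F13a1, Vcan, Mrc1, Mertk, Gata2, Pirb and the untested epithelial markers were named after their values were seen. Some genes that the rule selects are not reported here.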

Additional observations from a re-analysis of the deposited data

Results flagged for a closer look

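In groups of 5 libraries, 12 of 50 tested groups held a library far from the others, a gap of over 0.71 of the group's range. Chance gives such a gap in about 1 in 20 independent groups of normally distributed values. The groups here are CPM without logs and come from the same 10 libraries, so that share is not a measure of how unusual 12 of 50 is. LTB replicate 1 stood above the other LTB libraries for Ms4a4c (78.57 CPM), Ms4a6b (50.4 CPM), Ms4a6c (110.3 CPM), Ms4a6d (117.3 CPM) and Ms4a4d (59.22 CPM). The same library was high for the summed neutrophil (85.5 CPM), T cell (364.1 CPM) and B cell (9.997 CPM) markers. The summed macrophage markers were low in HTB replicate 5 (424.1 CPM) and in LTB replicate 4 (547 CPM), and in these libraries Ms4a6b and Ms4a6c were at the low end of their group. HTB replicate 2 had 11400 CPM of skeletal muscle markers and 4781 CPM of adipocyte markers, and no member stood apart in it.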

How the results depend on the processing

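The count of genes called, 1537, was 2510 by the DESeq2 Wald test, 971 with the replicate number as a block, 2907 without HTB replicate 2 and LTB replicate 1, and 739 to 3040 when single libraries were left out (lowest without HTB replicate 3, highest without HTB replicate 2). Members called, 1 in the main test, were 3 by DESeq2, 2 with a filter of 1 CPM in 5 libraries, 2 with the block (Ms4a4b and Ms4a7), and 0 to 2 with single libraries left out. Other MS4A genes called, 1 in the main test, were 3 by DESeq2, 2 with no filter on low counts, and 1 to 2 with single libraries left out. Ratios passing, 0 in the main test, were 14 without LTB replicate 5 and 0 without any other single library. They were also 0 with pseudocounts of 0.1 and 1 and in the exact sign-flip test with the replicate block, whose smallest p is 0.0625. The cause of these shifts was not tested.

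The replicate numbers are not taken as pairs: deviations of same-numbered libraries correlated at -0.02 to 0.10, and for 2 of the 5 numbers the correlation was the highest. Without LTB replicate 1 and HTB replicate 2, Ms4a6b stood at 0.149, Ms4a6c at 0.034, Tmem176a at -0.21 and Tmem176b at -0.03. By limma voom Tmem176a stood at -0.0034. With single libraries left out, Ms4a6b ranged from -0.42 to 0.145, Ms4a6c from -0.59 to 0.026, Tmem176a from -0.14 to 0.13 and Tmem176b from -0.083 to 0.16. Of 28 named genes that passed, 18 passed under every alternative that tested them. Of the 3 genes nearest to each member, 0 to 2 were shared when profiles were centred within each group. MS4A genes with under 100 reads over all libraries were too low for the main test, which sets the depth limit.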
